A study of Mus musculus with 18 samples.

Results

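Lipid droplet coat and assembly proteins are the proteins that cover the fat droplets of a cell or help to build them. The mRNAs of 10 of them, Plin1, Plin3, Plin4, Plin5, Cidec, Fitm1, Fitm2, Bscl2, Hilpda and Hsd17b13, were followed in visceral fat (WAT) of diabetic mice with and without bezafibrate (BEZ). The genes were taken by name, and each of the 10 had 1 probe set with a single gene symbol on the Affymetrix array, among 19938 genes and 35556 probe sets in all. Every gene passed, since no filter on low signals was used.

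All 18 mice were male wildtype C57BL/6N animals of 5 to 6 months, with 1 array per mouse. The 7 Con, SD mice were mock-injected with citrate buffer and ate standard chow (SD). The 6 STZ, SD mice received 65 mg/kg streptozotocin (STZ), a toxin of the insulin-producing beta cells, on each of 5 days at an age of 10 to 16 weeks, and ate the same chow. The 5 STZ, BEZ mice had the same injections and, from 2 weeks later, ate chow with 0.25% or 0.5% BEZ for 8 weeks. The labels do not say which mouse had which BEZ concentration, and no group of BEZ without STZ is among the samples, so that an effect of BEZ can be read on the STZ background alone. The study's methods give a slightly different STZ dose, a single BEZ concentration and controls without treatment; the labels were followed here. The labels call the samples of a group biological replicates.

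A lipid droplet is a core of triglycerides and sterol esters under a single layer of phospholipids, into which coat proteins insert. Perilipins (Plin genes) are the best known coat: they hold lipases off the droplet in the fed state and let them in when the cell is told to release fatty acids. White adipocytes store nearly all of their fat in 1 large droplet coated by PLIN1, and CIDEC lets small droplets pass their lipid into larger ones. Seipin (Bscl2) and the FIT proteins (Fitm1 and Fitm2) act in the endoplasmic reticulum, where droplets arise. Bezafibrate activates the peroxisome proliferator-activated receptors (PPARs), transcription factors that control many genes of fat storage and fat oxidation.

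Values are log2 signals, so that a difference of 1 is a doubling. Signals of different probe sets cannot be set against each other, and each gene is compared only with itself. Differences between groups came from limma, and a gene is said to have risen or fallen where its Benjamini-Hochberg adjusted p over all genes was under 0.10, the false discovery rate of the study.

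Other tissues were present on some arrays and were measured with marker lists. The mean of 11 pancreas genes was at most 6.38 on all arrays but 5. Those were STZ, SD replicate 6, at 12.84, and STZ, BEZ replicates 1 to 4, at 11.08, 9.48, 9.20 and 8.72. The mean of 11 genes of epididymis and testis ranged from 6.82 to 11.53 among the Con, SD mice, from 5.70 to 11.36 among the STZ, SD mice and from 5.72 to 6.62 among the STZ, BEZ mice. The mean of 11 white adipocyte markers ranged from 11.02 to 11.81, from 9.70 to 11.86 and from 12.00 to 12.06 in the same order, so the labelled tissue was present on every array. STZ, SD replicate 6 was lowest in this list. Each result of the 10 genes is given with these values where they moved with it.

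Plin4 and Plin5 lie next to each other on chromosome 17, with no gene of the RefSeq table between them. Plin3 lies further on, with 9 genes between it and Plin5. The sequences before the starts of Plin5 and Plin3 are shown because these genes of 1 family passed the test in different comparisons. The difference between both genes was not tested. Both are 250 bases of RefSeq sequence (GRCm38.p6, minus strand), 5′ to 3′ up to the base before the annotated start. Plin5 is chr17:56117549-56117798, its first listed start, and Plin3 is chr17:56290512-56290761. Capitals mark AGGTCA, the half-site of nuclear receptors such as the PPARs.
Plin5: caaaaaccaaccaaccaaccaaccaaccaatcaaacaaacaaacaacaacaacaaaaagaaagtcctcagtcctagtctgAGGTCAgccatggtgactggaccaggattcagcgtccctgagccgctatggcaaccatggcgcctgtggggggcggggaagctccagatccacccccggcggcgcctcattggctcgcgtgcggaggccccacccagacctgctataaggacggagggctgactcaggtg
Plin3: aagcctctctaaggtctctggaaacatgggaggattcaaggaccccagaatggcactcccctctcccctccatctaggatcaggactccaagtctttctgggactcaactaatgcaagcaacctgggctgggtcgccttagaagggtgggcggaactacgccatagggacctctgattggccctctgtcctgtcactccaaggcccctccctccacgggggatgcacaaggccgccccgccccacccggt

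The Plin5 window held 1 AGGTCA, at position -170 from the start, and the Plin3 window held none on either strand. AGGTCA on either strand was in 14% of 32851 RefSeq promoters of this length and in 3 of the 15 listed for the 10 genes. Besides Plin5 these were Hsd17b13, at -96, and the second listed start of Bscl2, at -202. Neither gene passed the test in any of the 3 comparisons, and the window of the second listed Plin5 start held no AGGTCA. The tandem pair that PPARs bind, AGGTCA repeated after 1 free base, was in 0.0335% of all promoters and in 0 of the 15; with the fourth base of each repeat free as well, these were 0.338% and 0. TATAAA was in 12.4% and in 0 of the 15. A match describes the letters in these windows only, and binding was not measured here.

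Plin5, which encodes a perilipin of cells that burn fat and ties droplets to mitochondria, rose with BEZ. Its log2 signal in STZ, BEZ replicates 1 to 5 was 7.76, 7.77, 7.50, 7.83 and 7.94. In STZ, SD it was 6.95 at the lowest, 7.29 at the median and 7.44 at the highest, and in Con, SD these values were 7.05, 7.35 and 7.52. All 5 STZ, BEZ mice lay above all 6 STZ, SD mice, as in 1.04% of all genes, and 4 of the 5 lay above every Con, SD mouse. Plin5 was higher in STZ, BEZ than in STZ, SD by 0.52 (SE 0.10, 95% interval 0.31 to 0.74, 1.44-fold, adjusted p = 0.0594, limma). It was higher in STZ, BEZ than in Con, SD by 0.42 (SE 0.10, adjusted p = 0.0296, limma). Plin5 was the only one of the 10 genes to pass the test in either comparison, against a background of 0.682% of all genes that rose from STZ, SD to STZ, BEZ and 4.57% that rose from Con, SD. None of the 10 fell, compared with 0.0251% and 1.38% of all genes. STZ itself left a difference of -0.10 (SE 0.09, 95% interval -0.30 to 0.09, adjusted p = 0.590, limma).

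The rise of Plin5 from STZ, SD to STZ, BEZ depended on single arrays for its call and not for its size. Without STZ, SD replicate 4 or STZ, BEZ replicate 1, 2, 4 or 5 the adjusted p was 0.124, 0.182, 0.178, 0.123 and 0.119 (limma), while the difference stayed between 0.48 and 0.54. Against Con, SD the call was lost without STZ, BEZ replicate 5 (0.37, adjusted p = 0.106). The mean of 7 brown-like adipocyte markers was also higher, at 6.89 to 7.43 in STZ, BEZ and 5.85 to 6.67 in STZ, SD (difference 1.06, adjusted p = 0.0433, exact permutation test, two-sided). Single genes of this list did not all follow Plin5. Of the 7 genes 2 rose from STZ, SD to STZ, BEZ, Cox8b by 2.86 and Cidea by 1.65 (adjusted p = 0.000793 and 0.0641, limma), and Elovl3 was 2.07 above Con, SD (adjusted p = 0.0421). With STZ 3 of the 7 fell, against 4.52% of all genes: Cox7a1, Cox8b and Dio2, by -0.94, -0.84 and -0.23 (adjusted p = 0.0377, 0.0917 and 0.0969, limma). Between STZ, BEZ and Con, SD the differences of Cox7a1, Dio2 and Zic1 were -0.09, -0.17 and 0.02, and none of these passed the test. Ucp1, the uncoupling protein that defines brown adipocytes, averaged 5.63 in the controls, 5.29 with STZ and 5.71 with BEZ and did not pass the test. The list of skeletal muscle, another tissue that uses PLIN5, also differed by 0.51 between STZ, BEZ and STZ, SD (adjusted p = 0.0577, exact permutation test, two-sided). With its mean as covariate the Plin5 difference was 0.49 and lost its call (adjusted p = 0.194, limma), while that against Con, SD was 0.45 (adjusted p = 0.0553). In that fit 0.0903% and 3.58% of all genes passed the test at these comparisons, compared with 0.707% and 5.95% in the main fit. The part of these cells in the Plin5 values was not tested. With the pancreas and epididymis lists as covariates the Plin5 difference was 0.60 (adjusted p = 0.00887, limma), in a fit where 12% of all genes passed the test. It was 0.44 (adjusted p = 0.414, limma) with the white adipocyte list as covariate, a fit in which 0.0201% of all genes passed.

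Plin3, the perilipin that is present in most tissues and moves from the cytosol onto new droplets, fell with STZ. Its log2 signal in Con, SD was 9.25 at the lowest, 9.34 at the median and 9.50 at the highest. In STZ, SD these values were 8.70, 9.05 and 9.33, and STZ, BEZ replicates 1 to 5 had 9.05, 9.09, 9.26, 9.08 and 9.06. The Con, SD mice lay within 0.24 of each other, and 5 of the 6 STZ, SD mice lay below all of them. The exception was STZ, SD replicate 3. Plin3 was lower in STZ, SD than in Con, SD by a log2 difference of -0.34 (SE 0.08, 95% interval -0.51 to -0.16, 1.26-fold, adjusted p = 0.0263, limma). The call remained with each of the 18 arrays left out in turn, and without STZ, SD replicate 6 the difference was -0.27 (adjusted p = 0.0288, limma).

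BEZ was not seen to move Plin3 back. The difference between STZ, BEZ and STZ, SD was 0.09 (SE 0.09, 95% interval -0.10 to 0.28, adjusted p = 0.799, limma). Between STZ, BEZ and Con, SD it was -0.25 (SE 0.09, adjusted p = 0.138), and 4 of the 5 STZ, BEZ mice lay below all Con, SD mice. Skeletal muscle markers were also lower in all STZ, SD mice than in any Con, SD mouse (6.41 to 6.76 against 6.83 to 8.72). With their mean as covariate the Plin3 difference was -0.26 (adjusted p = 0.359), a fit in which 0 genes of all passed the test at this comparison. The part of muscle in the result was not tested.

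Hilpda, which encodes a small droplet protein that hypoxia and fatty acids induce and that inhibits the lipase ATGL, also fell with STZ. In Con, SD its log2 signal was 5.94 at the lowest, 6.37 at the median and 7.04 at the highest. In STZ, SD it was 5.90, 6.04 and 6.32, and STZ, BEZ replicates 1 to 5 had 6.21, 6.14, 6.19, 6.24 and 6.16. The hypoxia core ACGTG or GCGTG was found 3 times in the 250 bases before the second listed start of Hilpda, at -111, -43 and -8, and not before the first; ACGTG was in 16.6% of all promoters and 1 of the 15, and GCGTG in 28.2% and 6. The groups overlapped in signal, and the Con, SD mice fell apart into 3 near 7 (replicates 2, 4 and 7) and 4 between 5.94 and 6.37. The difference between STZ, SD and Con, SD was -0.47 (SE 0.16, 95% interval -0.80 to -0.15, 1.39-fold, adjusted p = 0.0812, limma), and no STZ, SD mouse lay above the Con, SD mean.

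With Plin3, Hilpda made 2 of the 10 genes that fell with STZ, against 4.52% of all genes, and 0 of the 10 rose, against 5.82%. The Hilpda call was lost in 8 of the 18 fits with an array left out, among them those without Con, SD replicate 2, 4 or 7 (adjusted p = 0.156, 0.146 and 0.165, limma). The other 5 were STZ, SD replicates 1 to 4 and STZ, BEZ replicate 2, and the highest adjusted p was 0.172. In Con, SD replicates 2, 4 and 7 the epididymis and testis list was 6.94, 7.31 and 6.82, and in the other 4 Con, SD arrays it was 8.50 to 11.53. Without the 6 arrays over 8 in that list, the 3 Con, SD mice near 7 and 4 STZ, SD mice were left. The Hilpda difference was then -0.85 between STZ, SD and Con, SD and -0.82 between STZ, BEZ and Con, SD. That cut was chosen after the data were seen. The part of that tissue in the Hilpda values was not tested. BEZ left Hilpda 0.09 from its STZ, SD level (SE 0.17, 95% interval -0.26 to 0.45, adjusted p = 0.913), and -0.38 from Con, SD (adjusted p = 0.220).

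**Figure D1:**
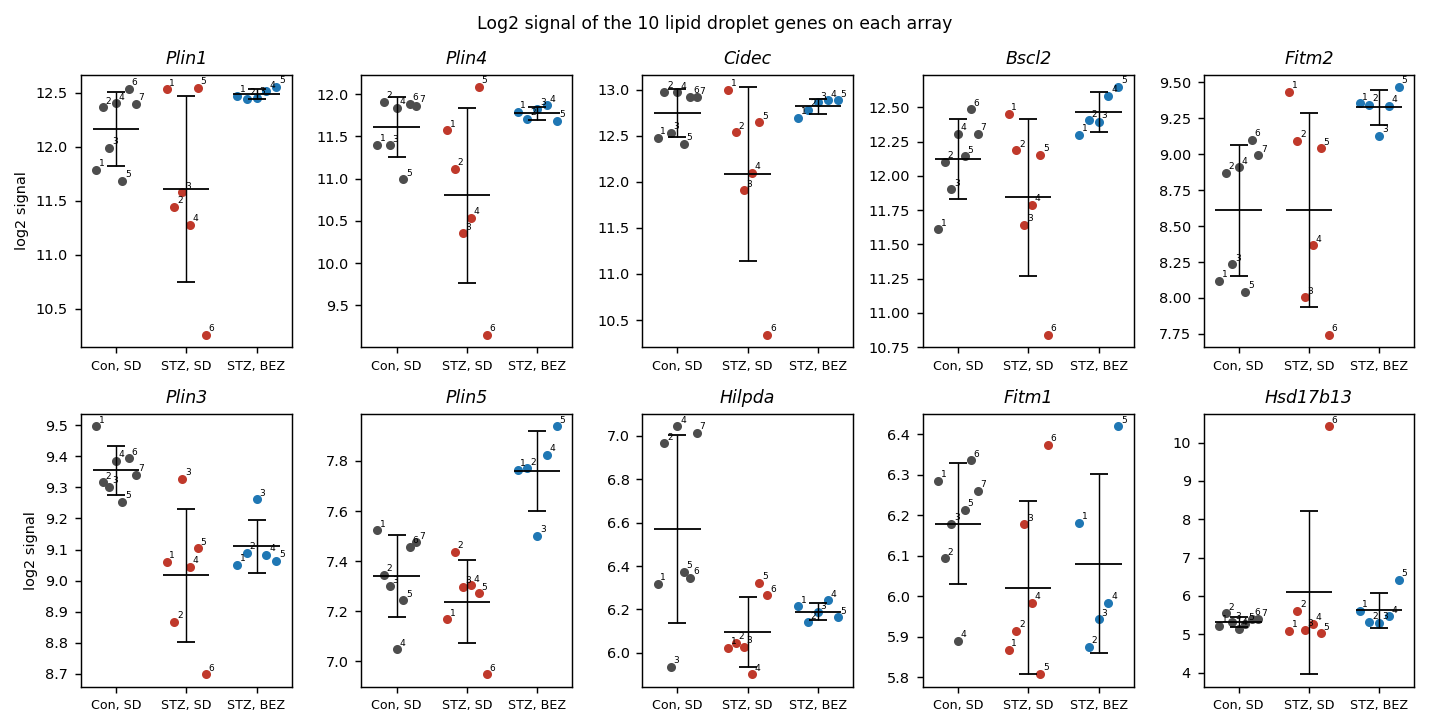
Log2 signal of the 10 genes on each array (vertical axis, a scale of its own for each gene) in Con, SD (n = 7), STZ, SD (n = 6) and STZ, BEZ (n = 5). Each point is 1 mouse with its replicate number, the long bar is the mean and the error bar the SD. In Plin5 the STZ, BEZ points lie above all STZ, SD points, and in Plin1, Plin4 and Cidec the STZ, BEZ points lie close together while those of STZ, SD are wide apart.

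**Figure D2:**
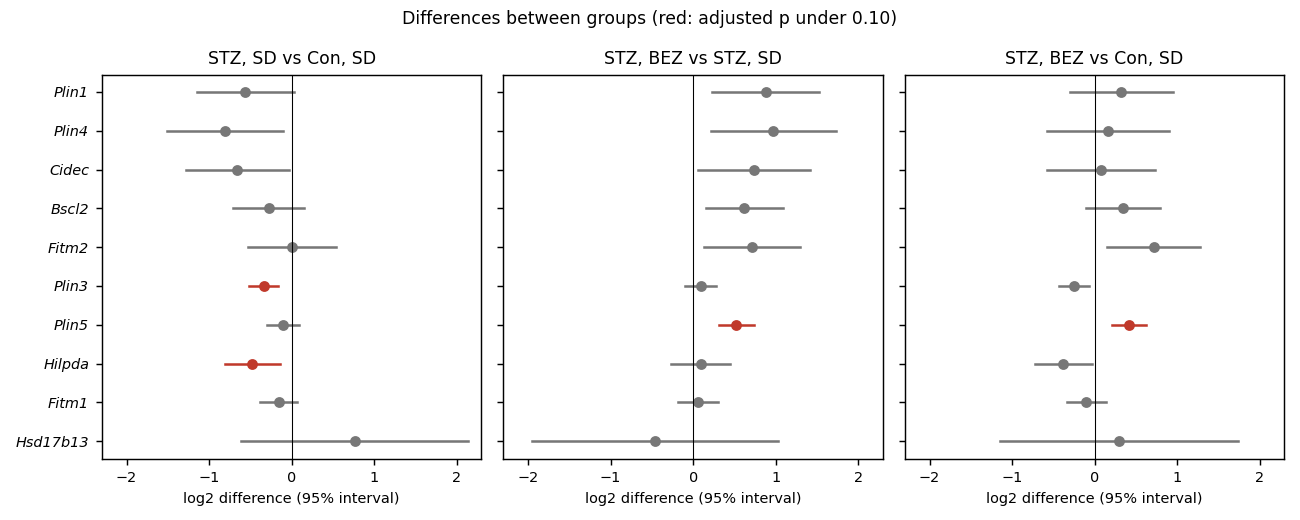
Log2 difference between group means for the 10 genes (horizontal axis) with the 95% interval from limma, for the 3 comparisons. Red marks an adjusted p under 0.10: Plin3 and Hilpda lower in STZ, SD than in Con, SD, and Plin5 higher in STZ, BEZ than in both other groups.

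The coat and fusion genes of white adipocytes, Plin1, Plin4 and Cidec, varied most among STZ, SD mice and least among STZ, BEZ mice. Plin1 encodes the perilipin that guards the large droplet of adipocytes. Its log2 signal in STZ, SD was 10.26 at the lowest, 11.51 at the median and 12.55 at the highest, compared with 11.68, 12.36 and 12.54 in Con, SD. STZ, BEZ replicates 1 to 5 had 12.47, 12.44, 12.45, 12.51 and 12.55. The 5 BEZ mice lay within 0.11 of each other at the top of the range, while 4 of the 6 STZ, SD mice lay below all Con, SD mice and STZ, SD replicates 1 and 5 lay beside the BEZ mice.

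Plin1 differed by -0.56 between STZ, SD and Con, SD (SE 0.28, 95% interval -1.15 to 0.03, adjusted p = 0.282, limma). It differed by 0.88 between STZ, BEZ and STZ, SD (SE 0.31, 95% interval 0.23 to 1.53, adjusted p = 0.300, limma), and neither passed the test over all genes. Leaving out STZ, SD replicate 1 or 5 took the second value to 1.06 and 1.07 (adjusted p = 0.0723 and 0.0981, limma).

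Plin4, an adipocyte perilipin found on small new droplets, also had its lowest signals among the STZ, SD mice. In STZ, SD its log2 signal was 9.15 at the lowest, 10.83 at the median and 12.09 at the highest, and in Con, SD 10.99, 11.84 and 11.91. STZ, BEZ replicates 1 to 5 had 11.79, 11.71, 11.83, 11.87 and 11.68. STZ, SD replicates 6, 3 and 4 were the lowest of all mice and STZ, SD replicate 5 the highest. Con, SD replicates 5, 3 and 1 had Plin4 at 10.99, 11.39 and 11.40, with the epididymis and testis list at 11.53, 10.99 and 8.50. Con, SD replicate 6 had Plin4 at 11.89 with that list at 9.07. The part of that tissue in the Plin4 values was not tested. The difference was -0.81 for STZ, SD against Con, SD (SE 0.33, 95% interval -1.51 to -0.11, adjusted p = 0.168, limma) and 0.97 for STZ, BEZ against STZ, SD (SE 0.36, 95% interval 0.21 to 1.73, adjusted p = 0.334, limma). Without STZ, SD replicate 5 the values were -1.07 (adjusted p = 0.0410) and 1.23 (adjusted p = 0.0858), past the threshold.

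Cidec, whose protein sits where droplets touch, had 10.34 at the lowest, 12.32 at the median and 13.00 at the highest in STZ, SD. In Con, SD it had 12.41, 12.92 and 12.98, and in STZ, BEZ replicates 1 to 5 12.70, 12.78, 12.86, 12.88 and 12.88. As in Plin4, STZ, SD replicates 6, 3 and 4 were lowest. The differences were -0.66 (SE 0.30, adjusted p = 0.217, limma) with STZ and 0.73 (SE 0.32, adjusted p = 0.443, limma) from STZ, SD to STZ, BEZ.

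The assembly genes Bscl2 and Fitm2 did not pass the test in any of the 3 comparisons. Bscl2, whose loss causes lipodystrophy, had 10.84, 11.97 and 12.45 as the lowest, median and highest of the STZ, SD mice and 11.61, 12.14 and 12.48 of the Con, SD mice, and STZ, BEZ replicates 1 to 5 had 12.30, 12.40, 12.40, 12.58 and 12.65. The groups overlapped, and the difference was 0.62 from STZ, SD to STZ, BEZ (SE 0.22, 95% interval 0.16 to 1.09, adjusted p = 0.312, limma). Without STZ, SD replicate 1 it was 0.74 (adjusted p = 0.0913).

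Fitm2, the FIT protein of adipose tissue, had 7.74, 8.70 and 9.43 as the lowest, median and highest of the STZ, SD mice and 8.04, 8.87 and 9.10 of the Con, SD mice. STZ, BEZ replicates 1 to 5 had 9.36, 9.34, 9.13, 9.34 and 9.47, above all 7 Con, SD mice. A group wholly above Con, SD was found in 5.17% of all genes. The Fitm2 difference between STZ, BEZ and Con, SD was 0.72 (SE 0.27, 95% interval 0.15 to 1.28, adjusted p = 0.161, limma), and without STZ, SD replicate 6, a mouse of neither group, the adjusted p was 0.0878. The fit takes 1 estimate of the spread over all 3 groups. The Fitm2 SDs of Con, SD, STZ, SD and STZ, BEZ were unequal, at 0.46, 0.67 and 0.12. The difference between STZ, SD and Con, SD was 0.00 (95% interval -0.53 to 0.54, adjusted p = 0.997).

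Over the 10 genes the median difference was -0.31 for STZ, SD against Con, SD, 0.57 for STZ, BEZ against STZ, SD and 0.23 for STZ, BEZ against Con, SD. From STZ, SD to STZ, BEZ 9 of the 10 differences were positive, compared with 52.1% of all genes. In the same comparison 6 of the 10 had an unadjusted p under 0.05, compared with 10.2% of all genes, and all but 1 of these 6 missed the adjusted threshold. Those that missed it, Plin1, Plin4, Cidec, Bscl2 and Fitm2, followed one another from array to array and are not separate observations. Of the 11 white adipocyte markers 11 had a positive difference and 9 an unadjusted p under 0.05. The counts are therefore not particular to droplet genes. The comparisons share the STZ, SD mice, so that a low STZ, SD mean enters both.

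The spread of Plin1, Plin4 and Cidec between mice differed from group to group more than that of most genes. For Plin1 the SDs of Con, SD, STZ, SD and STZ, BEZ were 0.34, 0.86 and 0.05, a ratio of 18.7 between the last groups, and 99.7% of all genes had a lower ratio. For Plin4 the ratio was 13.1 and for Cidec 11.6, above 99.2% and 98.8% of all genes, while the median of all genes was 1.84. Without STZ, SD replicate 6 the ratios were 13.3, 9.09 and 5.35, against a median of 1.51. Bscl2 and Fitm2 had 3.95 and 5.50. In Plin3 and Plin5 the ratios were 2.48 and 1.03, and without STZ, SD replicate 6 they were 1.90 and 0.60. The mean of the white adipocyte list had SDs of 0.34, 0.80 and 0.03 in Con, SD, STZ, SD and STZ, BEZ. Within that list the SDs of Pparg were 0.51, 1.10 and 0.04, and those of Gpd1 0.51, 0.57 and 0.22. A wide spread in STZ, SD beside a narrow one in STZ, BEZ was therefore not particular to Plin1, Plin4 and Cidec. The ratios and SDs are descriptions without a test.

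**Figure D3:**
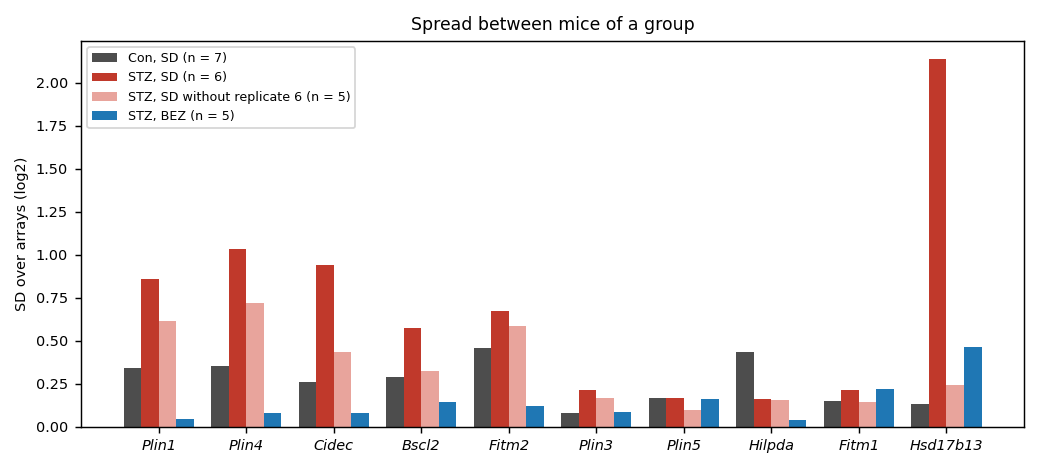
SD over the arrays of a group (vertical axis, log2) for the 10 genes, as bars from 0 for Con, SD, STZ, SD, STZ, SD without replicate 6, and STZ, BEZ. Plin1, Plin4 and Cidec have SDs of 0.86, 1.03 and 0.94 in STZ, SD and 0.05, 0.08 and 0.08 in STZ, BEZ; the Hsd17b13 bar of 2.14 falls to 0.24 without replicate 6.

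Plin1, Plin4, Cidec, Bscl2 and Fitm2 followed one another from array to array. Pearson's r between any pair of them was 0.74 to 0.95 over the 18 arrays and 0.67 to 0.90 without STZ, SD replicate 6. The points share the array, its tissue make-up and its normalization. Their levels also followed the white adipocyte list, which was 9.70, 10.83 and 11.05 in STZ, SD replicates 6, 3 and 4, 11.86 and 11.81 in STZ, SD replicates 1 and 5, and 12.00 to 12.06 in STZ, BEZ. STZ, SD replicate 6 had the pancreas list at 12.84, and STZ, SD replicates 3 and 4 had the epididymis and testis list at 11.36 and 8.51. In STZ, SD replicates 1, 2 and 5 the latter list was 5.75, 5.70 and 7.13, although Plin1 was 11.44 in replicate 2. STZ, BEZ replicates 1 to 4 had the pancreas list at 8.72 to 11.08, with these 5 genes not low. In this bulk tissue, fewer adipocytes, a share of other tissue and less RNA of these genes in each adipocyte cannot be told apart. The list itself was higher in STZ, BEZ than in STZ, SD by 0.92 (adjusted p = 0.0577 over 30 list comparisons, exact permutation test, two-sided) and differed by -0.37 between STZ, SD and Con, SD (adjusted p = 0.440).

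With the white adipocyte list as covariate, the differences between STZ, BEZ and STZ, SD were -0.05 for Plin1, -0.14 for Plin4, -0.26 for Cidec, -0.02 for Bscl2 and -0.08 for Fitm2. None of the 10 genes passed the test at this comparison, where 0.0201% of all genes did. In that fit Plin4 and Cidec were lower in STZ, SD than in Con, SD by -0.37 and -0.26 (adjusted p = 0.0362 and 0.0733, limma), as was Plin3 by -0.30 (adjusted p = 0.0317), and 5.09% of all genes were lower. With the pancreas and epididymis lists as covariates instead, the differences between STZ, BEZ and STZ, SD were 1.10 for Plin1, 1.19 for Plin4, 1.04 for Cidec, 0.81 for Bscl2 and 0.74 for Fitm2, with adjusted p from 0.0114 to 0.0329 (limma), and 7.29% of all genes were higher. The call for these 5 genes therefore depended on which list was the covariate. The white adipocyte list itself differed between STZ, BEZ and STZ, SD, and Gpd1, a gene of the list, was higher by 1.87. A fit with this list also takes out any change that its genes share with the 5 genes. It is therefore not a correction for tissue alone. The pancreas and epididymis lists also moved with the groups, by 2.74 and -2.59 between STZ, BEZ and Con, SD (adjusted p = 0.0455 and 0.0505, exact permutation test, two-sided). Between STZ, BEZ and STZ, SD they differed by 1.74 and -1.26 (adjusted p = 0.399 and 0.408). Among the STZ, SD mice only replicate 6, lowest in the white adipocyte list, was high in pancreas genes. That fit is thus no correction for tissue alone either.

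**Figure D4:**
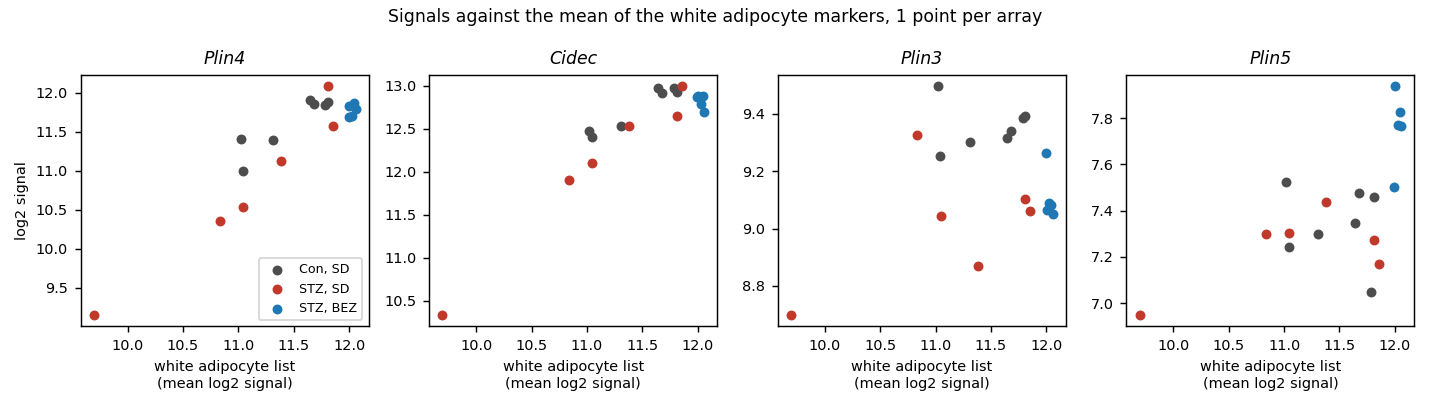
Log2 signal of Plin4, Cidec, Plin3 and Plin5 (vertical axes) against the mean log2 signal of 11 white adipocyte markers (horizontal axis), 1 point per array, coloured by group. Plin4 and Cidec climb with the list, whose lowest value is 9.70 in STZ, SD replicate 6; at list means over 11.6 the Plin3 points of Con, SD lie above those of the STZ groups, and 4 of the 5 STZ, BEZ points of Plin5, at list means of 12.00 to 12.06, lie above every other point.

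Hsd17b13, a droplet-bound dehydrogenase known mainly from hepatocytes, passed the test in none of the 3 comparisons, and 2 arrays stood apart. Its log2 signal was 5.14 to 5.54 in Con, SD with a median of 5.31. STZ, SD replicates 1 to 6 had 5.09, 5.62, 5.11, 5.28, 5.02 and 10.43, and STZ, BEZ replicates 1 to 5 had 5.62, 5.31, 5.30, 5.47 and 6.42. STZ, SD replicate 6 was also the array with the pancreas list at 12.84, while its liver list was 7.76. STZ, BEZ replicate 5 had the highest liver list of all arrays, 10.91 against 7.25 to 9.94, and a pancreas list of 6.12. STZ, BEZ replicate 1, with the pancreas list at 11.08, had Hsd17b13 at 5.62.

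The Hsd17b13 difference between STZ, SD and Con, SD was 0.76 (SE 0.65, adjusted p = 0.569, limma) and became -0.11 (adjusted p = 0.735) without STZ, SD replicate 6. Between STZ, BEZ and STZ, SD it was -0.47 (adjusted p = 0.887), and 0.40 (adjusted p = 0.474) without that array. With the pancreas and epididymis lists as covariates it was -1.47 (adjusted p = 0.0919, limma), and without the 5 arrays high in pancreas genes it was 1.20 (adjusted p = 0.0138), with 1 STZ, BEZ mouse left, so that its direction was not settled. The part of pancreas and liver tissue in these values was not tested.

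**Figure D5:**
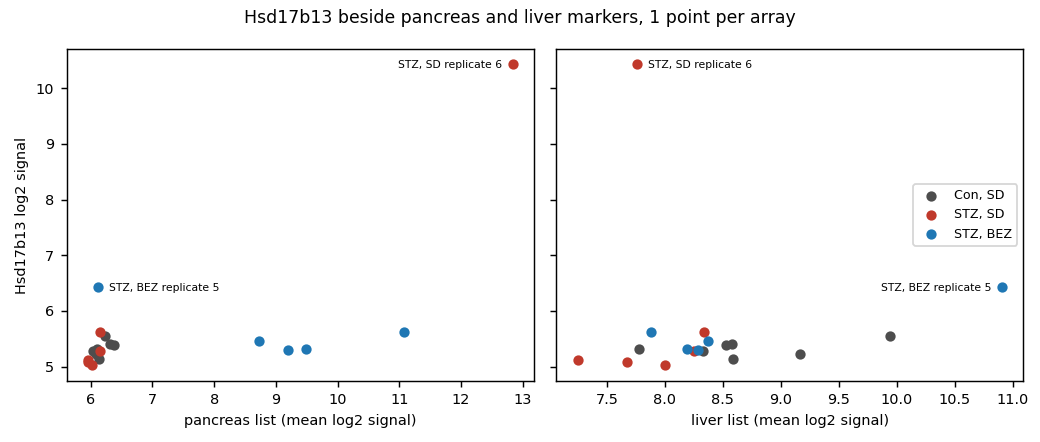
Log2 signal of Hsd17b13 (vertical axis) against the mean log2 signal of the pancreas list (left) and of the liver list (right), 1 point per array, coloured by group. STZ, SD replicate 6 lies at 10.43 with the highest pancreas list, and STZ, BEZ replicate 5 at 6.42 with the highest liver list.

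Fitm1, the FIT protein of skeletal muscle and heart, stayed within 5.81 to 6.42 on all arrays. The group medians were 6.21 (Con, SD), 5.95 (STZ, SD) and 5.98 (STZ, BEZ), and the groups overlapped. The difference between STZ, SD and Con, SD was -0.16 (95% interval -0.38 to 0.07, adjusted p = 0.458, limma) while the list of 9 skeletal muscle markers differed by -1.01 (adjusted p = 0.0433, exact permutation test, two-sided). Between STZ, BEZ and STZ, SD the Fitm1 difference was 0.06 (95% interval -0.19 to 0.31, adjusted p = 0.921).

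Around the 10 genes, 34 of 37 listed genes of the droplet and of triglyceride synthesis had a probe set of their own. With STZ 10 of the 34 fell and 2 rose, compared with 4.52% and 5.82% of all genes. From STZ, SD to STZ, BEZ 1 of the 34 rose and 0 fell, compared with 0.682% and 0.0251% of all genes. In this comparison 28 of the differences were positive, with a median of 0.52, and 18 had an unadjusted p under 0.05, compared with 52.1% and 10.2% of all genes. Of the 11 white adipocyte markers these were 11 and 9. From Con, SD to STZ, BEZ 4 of the 34 rose and 0 fell, against 4.57% and 1.38%, and 11 had an unadjusted p under 0.05, against 18.3%.

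Of the coat and fusion proteins, Plin2, another perilipin, was lower in STZ, SD than in Con, SD by a log2 difference of -0.92 (SE 0.31, adjusted p = 0.0877, limma), and from STZ, SD to STZ, BEZ it differed by 1.03 (adjusted p = 0.256). Cidea, the relative of Cidec in brown fat, was the 1 gene of the 34 that rose from STZ, SD to STZ, BEZ, by 1.65 (SE 0.35, adjusted p = 0.0641), and it was 1.89 above Con, SD (adjusted p = 0.00864). Cidec and Cidea therefore differed in their calls, with Cidec at 0.08 against Con, SD (adjusted p = 0.929); the difference between both genes was not tested.

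Of the 6 lipolysis genes, 2 fell with STZ. Pnpla3 had a difference of -2.09 (SE 0.56, adjusted p = 0.0388, limma) and Mgll, the monoglyceride lipase, -0.84 (SE 0.29, adjusted p = 0.0925). Abhd5, the coactivator of ATGL that PLIN1 holds at rest, was 1.06 higher in STZ, BEZ than in Con, SD (SE 0.28, adjusted p = 0.0469).

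Of the 7 measured genes of triglyceride synthesis, 2 fell with STZ: Dgat2, which adds the last fatty acid, by a difference of -1.66 (SE 0.35, adjusted p = 0.0149, limma), and Agpat2, a cause of lipodystrophy when lost, by -1.37 (SE 0.35, adjusted p = 0.0324). Dgat1 and Gpat3 were 1.00 and 1.15 higher in STZ, BEZ than in Con, SD (adjusted p = 0.0857 and 0.0936, limma).

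Of the 8 measured assembly and traffic genes 2 rose with STZ, Rab18 by 0.30 and Spg20 by 0.32 (adjusted p = 0.0478 and 0.0713, limma), and 0 passed the test in either comparison of STZ, BEZ; at an unadjusted p under 0.05 there were 0 from STZ, SD and 1 from Con, SD. The dehydrogenases Nsdhl and Hsd17b7, both of cholesterol synthesis, and Dhrs3, of retinoid metabolism, were lower in STZ, SD than in Con, SD by -1.21, -0.78 and -0.55 (adjusted p = 0.0384, 0.0452 and 0.0837). Of the 5 caveola genes, whose proteins line pits of the adipocyte membrane, Cavin3 and Cav1 were lower by -1.44 and -0.68 (adjusted p = 0.0137 and 0.0820).

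Of 11 regulators, Ppargc1a, a coactivator of mitochondrial genes, rose with STZ by 1.27 (SE 0.17, adjusted p = 0.00514, limma), and Hif1a, the hypoxia factor that induces Hilpda, had a difference of -0.47 (SE 0.12, adjusted p = 0.0287). Srebf1, a factor of lipid synthesis, was the 1 regulator that rose from STZ, SD to STZ, BEZ (0.93, SE 0.21, adjusted p = 0.0765). In STZ, BEZ 2 regulators were higher than in Con, SD, Ppargc1a by 1.58 (SE 0.18, adjusted p = 0.00106) and Ppara by 0.90 (SE 0.17, adjusted p = 0.00969). Pparg, the PPAR of adipocytes, averaged 11.36 (Con, SD), 11.12 (STZ, SD) and 11.83 (STZ, BEZ) and did not pass the test.

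Of 9 measured genes known to respond to fibrates, 2 rose from STZ, SD to STZ, BEZ. Acaa1b, a peroxisomal thiolase, rose by 1.28 (SE 0.23, adjusted p = 0.0403, limma) and Ucp3, a mitochondrial carrier, by 1.49 (SE 0.32, adjusted p = 0.0653), after a difference of -1.16 with STZ (adjusted p = 0.0320). Pdk4, a brake on glucose oxidation, was 2.10 higher in STZ, BEZ than in Con, SD (adjusted p = 0.00305), and it also rose with STZ by 0.95 (adjusted p = 0.0653). Pex11a, a peroxisomal protein, was 0.47 above Con, SD (adjusted p = 0.0906).

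For each of the 10 genes the 3 genes with the most similar signals over the 18 arrays were sought, by Pearson's r, as a description without a test. Plin1 was closest to Prkar2b, Apcdd1 and Nol6 (r = 0.98 each), and Plin4 to Cav2, Itih5 and Lpl (r = 0.97 each). Cidec was closest to Ermp1, Gstz1 and Dbi, Fitm2 to Lonp2, Nudt7 and Acadm, and Bscl2 to Pex19, Cers2 and Pcx, with r from 0.95 to 0.98. Among these, Lpl makes the lipase that feeds adipocytes, Prkar2b a subunit of the kinase that phosphorylates PLIN1, and Acadm, Nudt7, Lonp2 and Pex19 proteins of mitochondria and peroxisomes.

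Plin3 was closest to Commd9, Atp6v0e and Mta3 (r from 0.93 to 0.94), and Hilpda to Syp, Fgf13 and Pcolce2 (r from 0.91 to 0.94). Fitm1 was closest to Ftcd, Miox and Cdh4 (r from 0.77 to 0.81). Plin5 had the weaker values of 0.78, 0.77 and 0.77 with Clstn2, Phb2 and Acot2, which became 0.35, 0.45 and 0.48 after the group means were taken out. Phb2 and Acot2 encode mitochondrial proteins. The closest genes of Hsd17b13 were Fabp2, Erich5 and Mir217 (r = 0.98 each), and without STZ, SD replicate 6 their r was 0.89, 0.66 and 0.58.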

How the data were processed

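RNA of visceral fat was hybridised by the authors to Affymetrix Mouse Gene ST arrays, and the deposited values are log2 signals from RMA in Expression Console 1.2. A probe set's gene came from the platform's name table: of 35556 probe sets 21789 had 1 symbol, 1621 several and 12146 none. The probe set with the highest mean was kept per gene. No column was left out, and array medians were 6.76 to 6.87. No background level is given, so that no gene can be called detected or absent. Fitm1 on all arrays (5.81 to 6.42), Hilpda in STZ, SD (5.90 to 6.32) and Hsd17b13 in Con, SD (5.14 to 5.54) lay below the array medians. How near these signals are to background cannot be told. The number of 18 arrays limits the precision.

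Groups came from the titles. Limma 3.58.1 (R 4.3.3) was fitted over all 3 groups, with 15 residual and 2.44 prior degrees of freedom; the script was tested on simulated data. List means were compared by exact permutation, adjusted over 30 tests. The genes and lists were chosen with earlier results of these data known. The text names the 10 genes, up to 4 called genes per list (2 where none was called, for marker lists only beside a result) and the 3 most correlated genes. Ucp1 and Pparg were named after their values were seen.

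Alternatives were a threshold of 0.05, a 1.5-fold minimum, SAM with 100 permutations, all or averaged probe sets, a filter on dim genes, quantile and median scaling, a variance trend, array weights, fits on 2 groups, a replicate block, marker lists as covariates and each array left out. Fits without arrays over 8 in the pancreas or the epididymis list were chosen after seeing the data.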

Additional observations from a re-analysis of the deposited data

Results flagged for a closer look

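Of 30 groups of samples, 3 held a mouse that lay far from the rest, by the gap to its nearest neighbour as a share of the group's range. Chance flags about 1 in 20 groups. Hsd17b13 was 10.43 in STZ, SD replicate 6 with the nearest mouse at 5.62 (share 0.889), and 6.42 in STZ, BEZ replicate 5 with the nearest at 5.62 (share 0.717). Plin3 was 9.26 in STZ, BEZ replicate 3 with the nearest at 9.09 (share 0.814).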

How the results depend on the processing

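Of the differences of single genes, 940 kept direction and side of the threshold, 35 passed it newly, 35 lost it and 37 changed sign, 3 of them past the threshold. Those 3 were Plin4 and Cidec between STZ, BEZ and Con, SD with the white adipocyte list as covariate (-0.51 and -0.52), and Hsd17b13 between STZ, BEZ and STZ, SD without the 5 arrays over 8 in the pancreas list (1.20), which leaves 1 STZ, BEZ mouse, assumed to vary like the other groups. The adipocyte covariate also turned the difference between STZ, BEZ and STZ, SD to -0.047 for Plin1, -0.0042 for Plin3, -0.14 for Plin4, -0.26 for Cidec, -0.083 for Fitm2, -0.018 for Bscl2, -0.0069 for Hilpda and 1.27 for Hsd17b13, and that between STZ, BEZ and Con, SD to -0.24 for Plin1, -0.042 for Bscl2 and 0.034 for Fitm1. The pancreas and epididymis covariates turned Fitm2 to -0.10 (STZ), Hilpda to -0.051 (STZ, BEZ against STZ, SD) and Hsd17b13 to -1.34 (STZ, BEZ against Con, SD). Without the arrays high in pancreas genes Hsd17b13 was -0.11 (STZ), Plin3 -0.017 (STZ, BEZ against STZ, SD) and Fitm1 0.24 (STZ, BEZ against Con, SD). Without those high in epididymis genes Fitm2 was -0.10 (STZ), and Plin4 and Cidec were -0.10 and -0.13 (STZ, BEZ against Con, SD). Fitm2 with STZ, near 0 throughout, was -0.025 with quantile normalization and -0.022 with array medians set to 0. Array weights took Hsd17b13 to 0.16 (STZ, BEZ against STZ, SD) and Cidec to -0.024 (STZ, BEZ against Con, SD), and the replicate block took the latter to -0.048. With each array left out, Fitm2 (STZ) ranged from -0.16 to 0.18, Hsd17b13 from -0.11 to 0.98 (STZ) and from -0.68 to 0.40 (STZ, BEZ against STZ, SD), and Fitm1 from -0.026 to 0.13 (STZ, BEZ against STZ, SD). The cause was not tested.

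Of the 10 genes, 2 fell with STZ. This was 1 at an adjusted p under 0.05 and with 2 groups per fit, where 2.19% and 1.99% of all genes fell. It was 0 with a 1.5-fold minimum or the muscle covariate (1.86% and 0%). With the pancreas and epididymis covariates it was 4 (8.02%). In the main fit 4.52% of all genes fell. The 1 gene that rose from STZ, SD to STZ, BEZ became 0 at an adjusted p under 0.05 (0.0853% of all genes). It was also 0 with the fold minimum and with 2 groups per fit (0.446% and 0.0702%). The same held with the muscle or the adipocyte covariate (0.0853% and 0.015%) and without the arrays high in epididymis genes (0.0451%). With the pancreas and epididymis covariates 6 rose (7.29% of all genes), and Hsd17b13 was lower, where 0 were (4.75%). In the main fit 0.682% of all genes rose and 0.0251% fell. The 1 gene that rose from Con, SD to STZ, BEZ became 0 with the fold minimum (1.71% of all genes). It was also 0 without the arrays high in epididymis genes (1.21%). It became 2 with array weights and with 2 groups per fit (11.8% and 9.95%). With the pancreas and epididymis covariates it was 3 (11.8%), and with SAM 4 (16.9%). In the main fit 4.57% of all genes rose. The count of lower genes in that comparison was 0, with 1.38% of all genes in the main fit. It became 1 with SAM, quantile normalization, 2 groups per fit and the pancreas and epididymis covariates (8.07%, 1.69%, 4.19% and 8.12%). It was also 1 without the arrays high in epididymis genes (1.65%), 2 with array weights (7.24%) and 3 with the adipocyte covariate (3.19%).

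The 12 other droplet genes called with STZ became 7 at an adjusted p under 0.05 (5.46% of all genes). They were 6 with 2 groups per fit (5.13%), 20 with the adipocyte covariate (15.7%) and 0 with the muscle covariate (0%). Without the arrays high in epididymis genes they were 3 (6.3%). In the main fit 10.3% of all genes were called. The 1 from STZ, SD to STZ, BEZ became 2 with array weights or without the dimmest 25% of genes (1.9% and 1.3% of genes tested). It was 3 with SAM (3.22%) and 17 with the pancreas and epididymis covariates (12%). It was 0 at an adjusted p under 0.05 (0.0853%) and with 2 groups per fit (0.0702%). The muscle and adipocyte covariates (0.0903% and 0.0201%) and the fit without the arrays high in epididymis genes (0.0451%) also gave 0. In the main fit 0.707% of all genes were called. The 4 from Con, SD to STZ, BEZ became 2 at an adjusted p under 0.05 (3.02% of all genes). They were also 2 with array medians set to 0 (4.72%) or the muscle covariate (3.58%). They became 12 with array weights (19.1%), 13 with 2 groups per fit (14.1%) and 18 with SAM (25%). With the adipocyte covariate they were 11 (6.58%), as with the pancreas and epididymis covariates (19.9%). Without the arrays high in epididymis genes 1 was left (2.86%). In the main fit 5.95% of all genes were called.

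With each array left out in turn, 1 to 3 of the 10 genes fell and 0 rose with STZ, 0 to 3 rose and 0 fell from STZ, SD to STZ, BEZ, and 0 to 2 rose and 0 to 1 fell from Con, SD to STZ, BEZ. The other droplet genes called were 6 to 12, 0 to 5 and 1 to 10 in the same order. Of all genes 5.66% to 14.5%, 0.0552% to 3.54% and 2.1% to 10.5% were called. In these fits 2.19% to 6.05% of all genes fell with STZ. From STZ, SD to STZ, BEZ 0.0552% to 3.31% rose, and from Con, SD to STZ, BEZ 1.7% to 7.94%.

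Whether replicate numbers pair the samples across groups was not settled. Of 16 same-numbered pairs, 6 correlated above 0.1, in a range from -0.25 to 0.59. Pairs with different numbers were not looked at, so these values have nothing to be set against. With the number as replicate block, 1 of the 10 genes (Plin3) fell with STZ and 0 rose from STZ, SD or from Con, SD to STZ, BEZ. Of all genes 1.18% fell with STZ, and 0.01% and 1.86% rose in the latter comparisons. The other droplet genes called were 2, 0 and 1, against 3.41%, 0.01% and 3% of all genes.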
